A study of Mus musculus with 4 samples.

Results

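The genes described here repair DNA by homologous recombination or take part in the signalling that goes with it. They are 30 named genes of the deposited table of read counts, 30 of its 47937 gene entries, taken from a list of symbols and not by a threshold on any measured value: Nbn, Rad50, Rbbp8 and Exo1 for break sensing and resection, Brca1, Bard1, Palb2 and Brca2 of the BRCA complexes, Rad51c, Xrcc2, Xrcc3, Rad51ap1 and Rad54l for strand exchange, Blm, Mus81 and Eme1 for junction processing, Fanca, Fancb, Fancc, Fancl, Fancm, Fancd2, Fanci and Brip1 of the Fanconi anaemia pathway, the mismatch repair gene Msh6, the end-joining polymerase gene Polq, and the checkpoint kinase genes Atm, Atr, Chek1 and Chek2. They were measured by total RNA sequencing in mouse embryonic fibroblasts (MEF cells), all wild type. A pair of libraries came from untreated MEF cells and another pair from MEF cells exposed to genistein, an isoflavone of soy that acts on oestrogen receptors, tyrosine kinases and topoisomerase enzymes, at 50 µM for 24 h. The labels do not say that the libraries of a group came from separate cultures, so p-values measure only the spread between these samples, which may be technical.

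When both strands of DNA break, the MRE11-RAD50-NBN complex binds the ends and, with CtIP (the product of Rbbp8), starts to trim them, and EXO1 extends the single strand. BRCA1 with BARD1, then PALB2 and BRCA2, prepare that strand for exchange, and it then invades the sister chromatid as a template. The Fanconi anaemia proteins act where the strands are cross-linked: a core complex attaches ubiquitin to the FANCD2-FANCI pair. ATM and ATR are the kinases that sense the damage, and CHK2 and CHK1, the products of Chek2 and Chek1, are their respective effector kinases. Many of these genes are known to be transcribed mostly in S and G2 phase.

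Of the 30 genes, 16 fell and 4 rose after genistein, and 10 did not pass the test. The count of rises depended on the method: it was 1 (Chek2) with DESeq2 and 7 with scaling factors from genes alone or from library totals. Nbn fell by 51.7% and Fancb fell by 52.8%, and these were the only genes of the 30 whose change was over 1 on the log2 scale. Exo1 fell by 39.2% and Rbbp8 fell by 35.1%. Msh6 fell by 26.5%, Rad51ap1 fell by 24.8% and Chek1 fell by 22.3%, while Chek2 rose by 25.1%. The other genes that rose were Rad54l, Bard1 and Fancd2, by 14.3% or less. Here a rise or a fall means an p under 0.05 in the quasi-likelihood test of edgeR after Benjamini-Hochberg adjustment across the 17358 genes and repeat subfamilies that were tested (the edgeR adjusted p). Values are normalised read counts, which are counts scaled to a common library size, and with n = 2 libraries a group. In bulk RNA, fewer cells that express a gene and less of its RNA per cell cannot be told apart.

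These counts were read against all genes. All 30 genes passed the filter on low counts, which 16240 genes passed, and of those 33.5% rose and 38.2% fell, against 4 (rises) and 16 (falls) of 30. Among the 10045 genes whose mean normalised read count lay in the range of the 30 genes (149.5 to 5078), 33.1% rose and 47.1% fell. By the size cut-offs used in the study, a change over 1 on the log2 scale and a mean normalised count over 100 beside the adjusted p, 3.92% of genes rose and 4.16% fell, against 0 and 2 of the 30. The genistein libraries were both above both untreated libraries for 40.7% of genes and both below for 44.6%, and for 7 and 18 of the 30. Of the 10045 genes in the range of the 30 genes, 3837 were above and 5241 below in this way. The median log2 fold change of the 30 genes was −0.15, beside −0.03 for all genes and −0.10 for genes in their range. Their changes were small in size: 19 of 30 (63.3%) lay within 0.25 of 0 on the log2 scale, beside 34.4% of the genes in their range, and the median size was 0.18 beside 0.38.

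**Figure D1:**
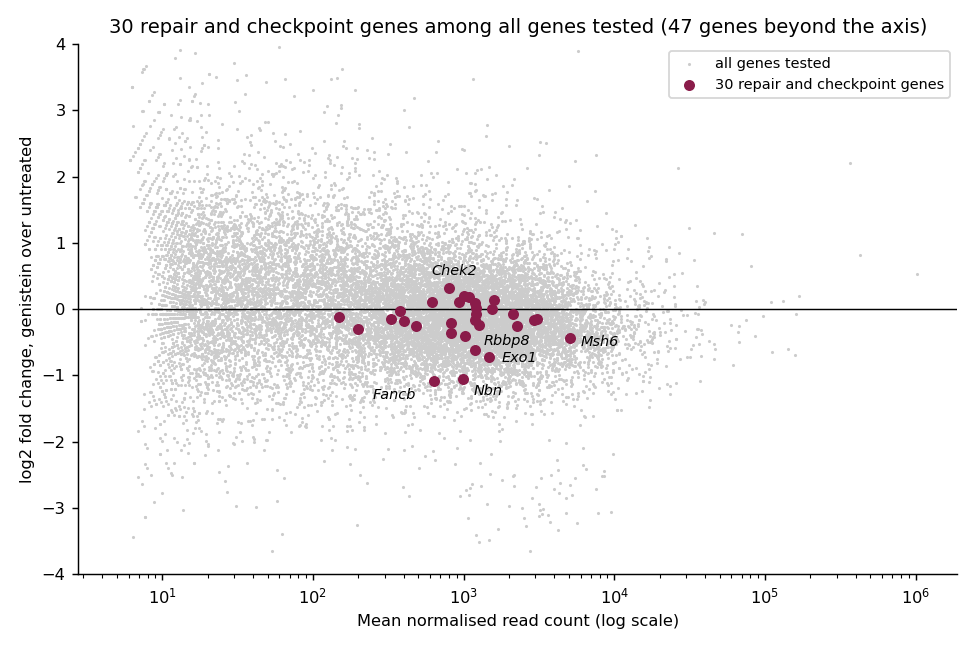
Log2 fold change of genistein over untreated (vertical axis) against mean normalised read count over the 4 libraries (horizontal axis, log scale) for all genes tested (grey) and the 30 genes (dark red), with 47 genes beyond the vertical limits of 4. The 30 genes lie between −1.08 (Fancb) and 0.32 (Chek2), with 19 of them within 0.25 of 0.

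The libraries held 28591958 to 31464284 counts. Repeats took 11.97 to 12.52% of them in untreated MEF cells and 13.6 to 14.6% after genistein, and mitochondrial genes 1.97 to 2.07% and 3.14 to 3.30%. The 30 genes together took 0.132 to 0.133% and 0.119 to 0.122%. Of 12 fibroblast markers, Thy1 was at 0 in all libraries and Fap and Lum had at most 10 counts, while the summed normalised count of the list was 433000 to 444700 in untreated and 412700 to 421900 in exposed MEF cells. That sum hides opposite moves: of the 9 tested, 7 fell and 2 rose (Dcn and Fn1). Their log2 fold changes ran from −0.73 (Pdgfrb) to 1.08 (Dcn). Some markers of other cell types also moved, mostly 1 to 3 genes of each list: the summed count of 7 epithelial markers went from 1130 to 1163 down to 232 to 251 (Krt14, Krt8 and Krt18, with Epcam and Krt5 at 0), of 7 immune markers from 195 to 210 up to 561 to 576 (Csf1r and Cd68, with Adgre1 and Cd3e at 0 and Ptprc at 0 or 1 count), of 5 endothelial markers from 25.97 to 33.88 up to 99.2 to 99.4 (mostly Kdr), and of 5 muscle markers from 31.8 to 37.0 up to 265 to 286 (Des, with Myod1 and Ckm at 0). The 6 neural markers summed to 863 to 919 and then 753 to 789. The 5 pluripotency and germ cell markers summed to 114 to 134 and then 93.8 to 102, with Dazl and Dppa3 at 0. Ddx4 fell. Nanog and Pou5f1 had higher counts but did not pass the test (edgeR adjusted p = 0.0519 and 0.144), and Pou5f1 had at most 15 counts. The part of these differences in the changes of the 30 genes was not tested.

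The promoters of these genes are shown because S phase genes of this kind are known targets of E2F factors. RefSeq promoters (GRCm38.p6, 250 bases before to 50 after the start) were matched for 24 of the 30 genes. Nbn, Rad50, Rbbp8, Exo1, Xrcc2 and Fancd2 had no match. The counts below thus leave out every gene of break sensing and resection. An E2F motif (TTTCCCGC, TTTGGCGC, TTTCGCGC or TTTGCCGC on either strand) was present for 5 of the 24, 20.8%, beside 2.60% of 27025 genes with a promoter in the table: in Bard1 and Chek2, which rose, in Rad51c and Msh6, which fell, and in Brca2, which was not called. The motif was thus found for 2 of 3 genes that rose, 2 of 12 that fell and 1 of 9 not called. The windows of 60 bases around the match upstream of Bard1, Chek2 and Brca2 are given here 5′ to 3′ on the gene's strand, with the match in capitals.
Bard1, chr1:71103148-71103207, minus strand: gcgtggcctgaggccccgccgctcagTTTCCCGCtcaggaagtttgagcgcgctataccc
Chek2, chr5:110839805-110839864, plus strand: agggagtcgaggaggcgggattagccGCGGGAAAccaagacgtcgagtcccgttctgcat
Brca2, chr5:150522427-150522486, plus strand: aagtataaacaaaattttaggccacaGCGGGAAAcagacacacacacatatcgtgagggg
The match began 209 bases before the RefSeq start in Bard1, 152 before it in Chek2 and 168 before it in Brca2, read forward in Bard1 and on the opposite strand in the other two. A CCAAT box (CCAAT on either strand), bound by the factor NF-Y, was present for 14 of 24 (58.3%) beside 41.1% of genes: for 8 of 12 genes that fell, 4 of 9 not called and 2 of 3 that rose, Chek2 among them. The cell cycle homology region of late cell cycle promoters (TTTGAA or TTCGAA on either strand) was present for 4 of 24 (16.7%) beside 21.7%. The 100 bases upstream of Msh6 and of Rad51ap1, both of which fell, hold the box, and those of Fancb, with the largest fall of the 30, are printed beside them (capitals mark ATTGG, the box read on the opposite strand). The Fancb promoter is among the 14 with the box, but its match lies outside the stretch printed.
Msh6, chr17:87974950-87975049, plus strand: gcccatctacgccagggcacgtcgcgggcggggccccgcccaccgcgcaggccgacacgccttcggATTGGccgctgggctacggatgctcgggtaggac
Rad51ap1, chr6:126939588-126939687, minus strand: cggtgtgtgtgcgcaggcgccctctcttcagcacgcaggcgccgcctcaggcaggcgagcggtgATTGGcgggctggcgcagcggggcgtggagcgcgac
Fancb, chrX:164980492-164980591, plus strand: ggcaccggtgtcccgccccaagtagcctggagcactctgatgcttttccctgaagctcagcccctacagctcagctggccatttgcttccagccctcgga
These matches are descriptions of letters, and binding was not measured.

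Break sensing and resection held the largest falls as a group: 3 of its 4 genes fell, none rose, and the median log2 fold change was −0.67. Of all genes tested 38.2% fell, and of genes in the count range of the 30 genes 47.1% fell. Nbn (ENSMUSG00000028224, chr4:15957925-15992589, plus strand, GRCm38) encodes nibrin, the subunit that recruits ATM to breaks. Untreated MEF cells had 1352 and 1331 normalised reads of Nbn, against 645 and 651 in the exposed cells. Both exposed libraries lay far below both untreated ones, with a log2 fold change of −1.05 (SE 0.05, edgeR adjusted p = 4.03e-11). With library totals as the scale it was −0.98, just inside the cut-off of 1. Exo1 (ENSMUSG00000039748, chr1:175880581-175913489, plus strand), the exonuclease of long-range resection, had 1801 and 1857 untreated and 1114 and 1110.4 exposed. Both exposed libraries were well below, and its log2 fold change was −0.72 (SE 0.05, edgeR adjusted p = 5.82e-10). Rbbp8, which encodes CtIP, the cofactor that starts resection, went from 1464 and 1411 to 935 and 932, a log2 fold change of −0.62 (SE 0.05, edgeR adjusted p = 1.09e-08). Rad50, the structural ATPase of the same complex as nibrin, stood at 2168 and 2164 untreated and 2023 and 2096 exposed. Its libraries did not overlap, but the log2 fold change of −0.07 (95% interval −0.16 to 0.01) did not pass the test (edgeR adjusted p = 0.105). Mre11a, the nuclease subunit, is not among the 30 and was looked at after its values were seen: it went from 2192 and 2100.45 to 1221 and 1268 (log2 fold change −0.79, SE 0.04, edgeR adjusted p = 1.36e-10).

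**Figure D2:**
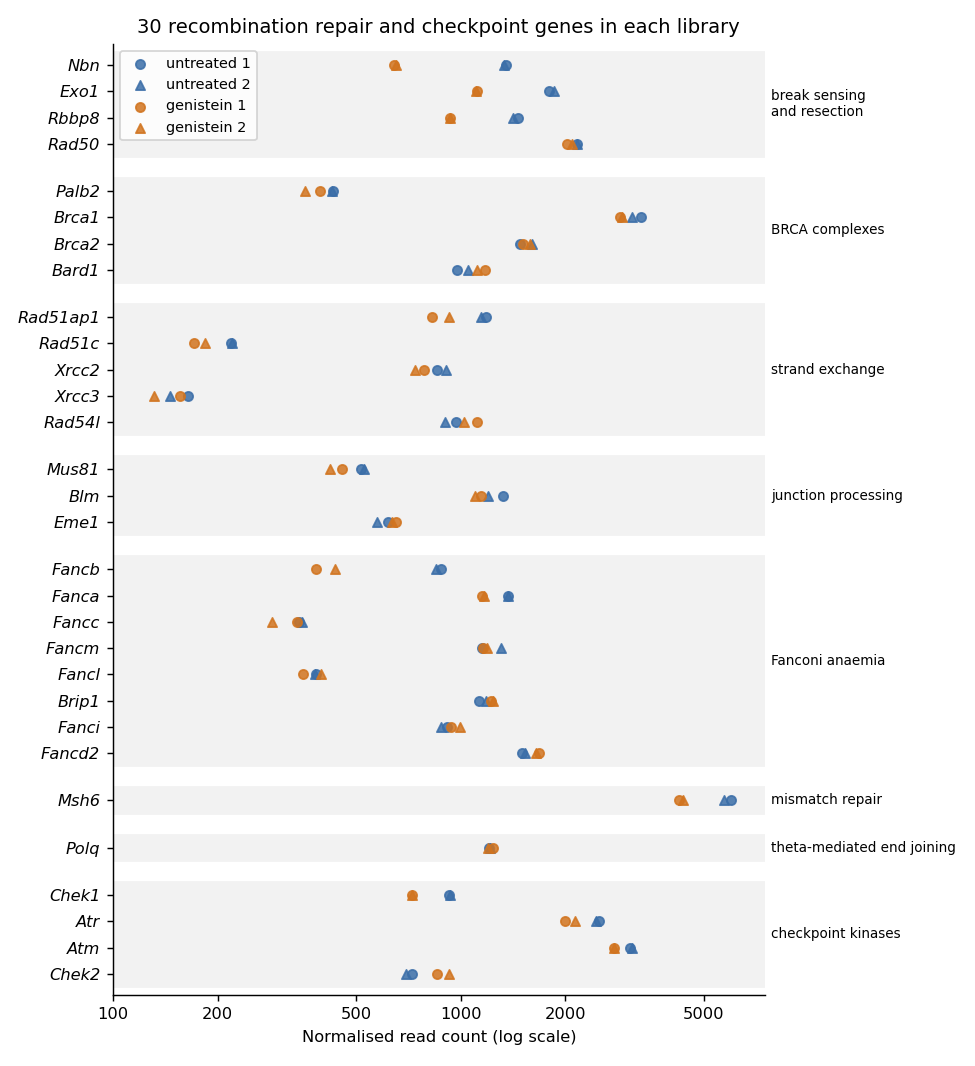
Normalised read count (horizontal axis, log scale) of each of the 30 genes in each library, grouped by role, with untreated libraries in blue, genistein-exposed libraries in orange, replicate 1 as circles and replicate 2 as triangles. The exposed libraries of Nbn, Exo1, Rbbp8, Fancb and Msh6 lie clear to the left of the untreated ones, those of Chek2 to the right, and those of Brca2, Polq, Fancl, Fancm and Xrcc3 overlap them.

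Genes of the BRCA complexes moved little and not in 1 direction: Brca1 and Palb2 fell, Bard1 rose and Brca2 was not called. Brca1 (ENSMUSG00000017146, chr11:101488764-101551955, minus strand), a ubiquitin ligase subunit that favours recombination over end joining, went from 3301 and 3121 to 2881 and 2922, a log2 fold change of −0.15 (SE 0.04, edgeR adjusted p = 0.00237). Bard1, its obligate partner, had 975 and 1051 untreated and 1178 and 1111 exposed. Bard1 was thus higher in both exposed libraries (log2 fold change 0.18, SE 0.06, edgeR adjusted p = 0.01), the opposite direction to Brca1. Palb2, the bridge between BRCA1 and BRCA2, had 429 and 426, then 394 and 357 (log2 fold change −0.18, SE 0.08, edgeR adjusted p = 0.0435), close to the threshold. The Palb2 call was lost without untreated 1, untreated 2 or genistein 2 (log2 fold change −0.18, −0.19 and −0.12), and that of Bard1 without untreated 1 or genistein 1 (0.12 and 0.14). With DESeq2 neither was called (DESeq2 adjusted p = 0.206 and 0.0833). Brca1 was lower in every setting tried but not called with library totals as the scale (−0.08). Brca2, which acts after PALB2 to prepare the strand for exchange, had 1480.45 and 1602, then 1511 and 1581. The exposed libraries of Brca2 lay between the untreated ones, and the 95% interval of its log2 fold change ran from −0.10 to 0.11 (edgeR adjusted p = 0.938).

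Among the strand exchange genes, 3 of 5 fell and 1 rose, beside 38.2% and 33.5% of all genes tested. Rad51ap1, which stimulates strand exchange, fell most, from 1186 and 1143 to 827 and 927. That is a log2 fold change of −0.41 (SE 0.06, edgeR adjusted p = 1.31e-05), with both exposed libraries below both untreated ones. Complexes that support the filament on the resected strand are encoded by Rad51c (219 and 220.2, then 172 and 184; log2 fold change −0.30, edgeR adjusted p = 0.0155), Xrcc2 (858 and 906, then 784 and 738) and Xrcc3. Xrcc2 fell by 0.21 on the log2 scale (SE 0.06, edgeR adjusted p = 0.0046). Xrcc3 had the lowest counts of the 30, with 165 and 146 untreated and 156 and 132 exposed, and its groups overlapped (95% interval of the log2 fold change −0.39 to 0.16, edgeR adjusted p = 0.445). Rad54l, a translocase that acts during strand invasion, went from 972 and 903 to 1118 and 1024. It was above the untreated libraries in both exposed ones (log2 fold change 0.19, SE 0.06, edgeR adjusted p = 0.0091), a call lost without untreated 2 or genistein 1 (0.14 and 0.13). The call of Rad51c was lost without genistein 1 (−0.25). With DESeq2 neither Rad54l nor Rad51c was called (DESeq2 adjusted p = 0.0695 and 0.138).

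The genes that resolve or dissolve the joined strands changed by at most 0.25 on the log2 scale. Blm, the helicase that dissolves junctions without crossover, had 1323 and 1196 untreated and 1148 and 1102 exposed (log2 fold change −0.16, SE 0.06, edgeR adjusted p = 0.016). Mus81, a nuclease that cuts junctions, had 517 and 526, then 455 and 421 (log2 fold change −0.25, SE 0.07, edgeR adjusted p = 0.00442). Eme1, the non-catalytic partner of MUS81, had 618 and 575, then 651 and 636, and was not called (log2 fold change 0.11, SE 0.06, edgeR adjusted p = 0.133). The exposed libraries of Mus81 were both lower than the untreated ones and those of Eme1 both higher. The call of Blm was lost without untreated 1 or genistein 2 (log2 fold change −0.09 and −0.13), those of Blm and Mus81 were lost with DESeq2 (DESeq2 adjusted p = 0.0666 and 0.0542), and Eme1 was called higher when scaling factors came from genes alone (0.15) or from library totals (0.18).

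**Figure D3:**
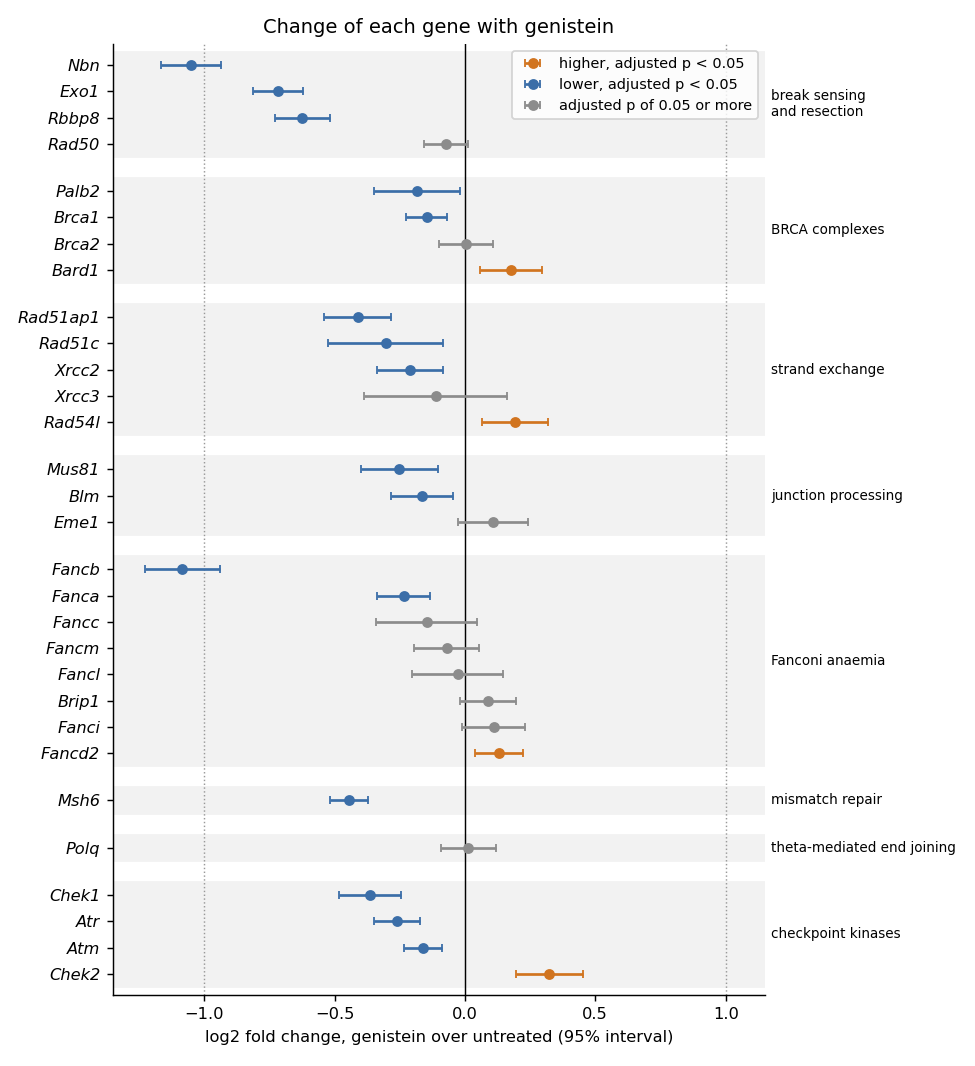
Log2 fold change of genistein over untreated with its 95% interval for each of the 30 genes, by role, with falls at edgeR adjusted p under 0.05 in blue, rises in orange and the rest in grey, and dotted lines at −1 and 1. Nbn (−1.05) and Fancb (−1.08) lie past −1, and the genes that rose (Chek2, Rad54l, Bard1 and Fancd2) lie between 0.13 and 0.32.

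In the Fanconi anaemia pathway a single gene stood out from others near 0: the median log2 fold change over the 8 genes was −0.05, 2 fell, 1 rose and 5 were not called. Over all genes tested 38.2% fell and 33.5% rose. Fancb (ENSMUSG00000047757, chrX:164980592-164997272, plus strand) encodes a subunit of the catalytic module of the core complex. It had 877 and 852 normalised reads untreated and 384 and 434 exposed, a log2 fold change of −1.08 (SE 0.07, edgeR adjusted p = 4.46e-10). Without genistein 1 it was −0.99, just inside the cut-off of 1, and still called. Fancl, the ubiquitin ligase of that same module, had 384 and 380.1, then 353 and 398, so that its groups overlapped (95% interval −0.20 to 0.15, edgeR adjusted p = 0.772). Fanca, the large core subunit, had 1366 and 1373, then 1155 and 1171 (log2 fold change −0.24, SE 0.05, edgeR adjusted p = 0.000339). Fancc, a further core subunit, was lower by 0.15 on the log2 scale and Fancm, the translocase that anchors the complex to DNA, by 0.07, and neither was called (edgeR adjusted p = 0.162 and 0.296). Both depended on 1 library: Fancc was called lower without genistein 1 (log2 fold change −0.26) and Fancm without untreated 1 (−0.16).

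The other 3 genes of the pathway had higher counts after genistein, and 1 of them passed the test. Fancd2, the substrate of the core complex, had 1502 and 1537 untreated and 1677 and 1649.9 exposed, and rose by a log2 fold change of 0.13 (SE 0.04, edgeR adjusted p = 0.0133). Fanci, with which FANCD2 forms a clamp on DNA, had 913 and 876, then 937 and 995 (log2 fold change 0.11, SE 0.06, edgeR adjusted p = 0.0961). Brip1, the BRCA1-associated helicase, had 1132 and 1183, then 1219.9 and 1241 (log2 fold change 0.09, SE 0.05, edgeR adjusted p = 0.123). Exposed libraries were above untreated ones for each of Fancd2, Fanci and Brip1, and Fancd2 alone was called. The Fancd2 call was lost with DESeq2 (DESeq2 adjusted p = 0.129) and without untreated 1 or genistein 1 (log2 fold change 0.11 and 0.12), and Fanci was called without genistein 1 (0.16). With library totals as the scale Fanci and Brip1 both passed (0.18 and 0.16).

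Msh6 (ENSMUSG00000005370, chr17:87975062-87990892, plus strand), which encodes a subunit that recognises base mismatches, was the most abundant of the 30. It went from 5999 and 5705 to 4244 and 4366, with no overlap, a log2 fold change of −0.44 (SE 0.03, edgeR adjusted p = 6.65e-09). Polq encodes polymerase theta, which joins ends by short homologies when recombination is not used. Polq had 1206 and 1213 untreated and 1242 and 1197 exposed, so that its groups overlapped, and the 95% interval of its log2 fold change was −0.09 to 0.12 (edgeR adjusted p = 0.824).

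The checkpoint kinase genes divided: Atm, Atr and Chek1 fell and Chek2 rose. Atm (ENSMUSG00000034218, chr9:53439149-53536740, minus strand), the kinase activated by breaks, had 3063 and 3121, then 2771 and 2760.25 (log2 fold change −0.16, SE 0.04, edgeR adjusted p = 0.000662). Atr (ENSMUSG00000032409, chr9:95857597-95951781, plus strand), activated by single-stranded DNA, had 2508 and 2449.8, then 2001 and 2139 (log2 fold change −0.26, SE 0.04, edgeR adjusted p = 3.11e-05). For both kinases the exposed libraries lay below the untreated ones. Chek1 (ENSMUSG00000032113, chr9:36708482-36727065, minus strand), the effector downstream of ATR, had 929 and 935 untreated and 726 and 723 exposed, a log2 fold change of −0.36 (SE 0.06, edgeR adjusted p = 2.11e-05). Chek2 (ENSMUSG00000029521, chr5:110839979-110874145, plus strand), the effector downstream of ATM, had 725 and 698 untreated and 856 and 926 exposed. It had the largest rise of the 30, with a log2 fold change of 0.32 (SE 0.06, edgeR adjusted p = 0.000169).

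Ratios of raw counts within a library do not depend on how libraries are scaled, and 9 pairs of partner genes, chosen after their values were seen, were compared in this way. With 2 libraries against 2, the smallest p an exact two-sided permutation test can give is 0.333. Chek2 had 0.781 and 0.746 times the counts of Chek1 in untreated MEF cells and 1.18 and 1.28 times after genistein, so that both exposed libraries had a higher ratio than both untreated ones (exact p = 0.333). Raw counts of different genes also follow exon length, so only the change of a ratio is read here: per kilobase of exon, Chek2 was above Chek1 in both groups (237 against 201 untreated, and 297 against 156 exposed). Nbn had 0.624 and 0.615 times the counts of Rad50, and then 0.319 and 0.311 (exact p = 0.333). The ratio of Fancb to Fancl went from 2.29 and 2.24 to 1.09 and 1.09. Bard1 to Brca1 went from 0.295 and 0.337 to 0.409 and 0.380, and Eme1 to Mus81 from 1.20 and 1.09 to 1.43 and 1.51. Each of these ratios, and those of Palb2 to Brca2 and of Atr to Atm, kept its groups apart. How often the ratios of other gene pairs do so was not counted. Of single genes tested, 40.7% had both exposed libraries above both untreated ones and 44.6% below. The ratios of Fancd2 to Fanci (1.65 and 1.76, then 1.79 and 1.66) and of Xrcc3 to Rad51c (0.753 and 0.664, then 0.907 and 0.714) overlapped (exact p = 0.667 for both).

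**Figure D4:**
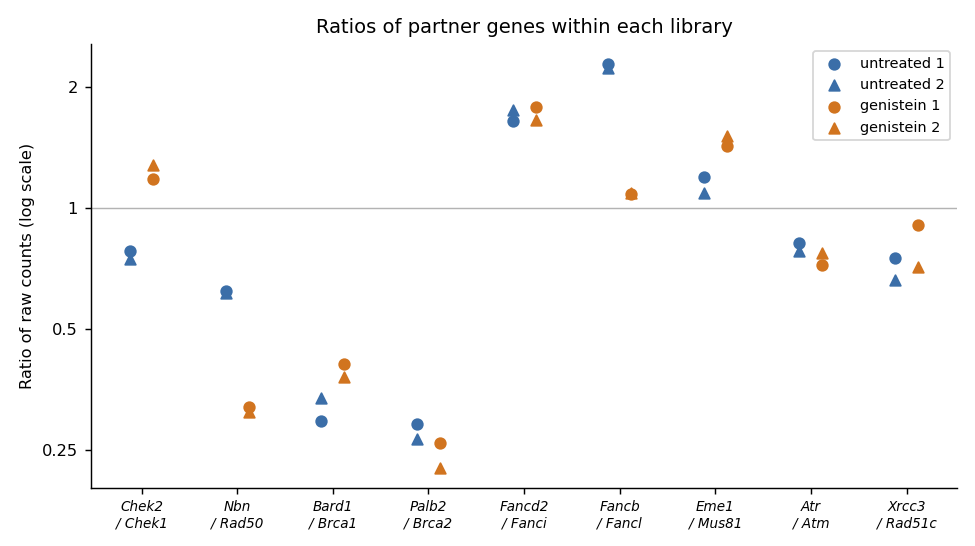
Ratio of raw counts of partner genes (vertical axis, log scale) in each library, with untreated libraries in blue, genistein-exposed libraries in orange and the replicate as the marker shape. Chek2 over Chek1 is higher after exposure (0.781 and 0.746, then 1.18 and 1.28; raw counts are not corrected for exon length), Nbn over Rad50 and Fancb over Fancl are lower after exposure, and Fancd2 over Fanci overlaps.

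Levels of different genes were compared per kilobase of annotated exon (normalised count per kilobase, with exon lengths from GENCODE M21). The length merges all annotated exons of a gene, of whichever transcript (23629 bases for Atr, 2533 for Nbn). Places and levels therefore also depend on the annotation. In untreated MEF cells Msh6 was highest at 1347, followed by Nbn at 529, Rad50 at 403, Brca1 at 376 and Atm at 299. After genistein the level of Msh6 was 991 and still the highest, Nbn had gone from place 2 to place 6 (256) and Fancb from place 6 (290) to place 16 (137), whereas Chek2 had gone from place 8 (237) to place 4 (297). Exo1 moved from place 9 (217) to place 18 (132). The lowest levels were those of Fancc (41.5 untreated and 37.4 exposed), Rad51c (50.1 and 40.6), Xrcc3 (56.5 and 52.2) and Palb2 (58.2 and 51.2). These 4 genes held the last places in both groups, and Palb2 and Xrcc3 differed by less than the spread between the Xrcc3 libraries.

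Whether reads were counted by strand was not given in the sources used here, so genes whose exons overlap another gene on the opposite strand are less certain. By the GENCODE M21 annotation, a later release than the one the reads were counted with, Nbn, Fancb, Exo1, Chek1 and Chek2 share no exon base with another gene. The largest overlap was that of Gm16133 with 16.4% of the exon bases of Fancc, and Gm16133 was at 0 in all libraries. Lrrc41 overlaps 15.4% of the exon bases of Rad54l, and had a log2 fold change of −0.66. Polg overlaps 15.9% of those of Fanci (log2 fold change −0.36), Vrk2 13.7% of those of Fancl, Zfp276 10.5% of those of Fanca (0.25) and Lrrc59 8.0% of those of Eme1 (−1.25). Rad54l rose while its overlapping gene fell, and Fanca fell while Zfp276 rose. The share of reads that crossed between such genes was not tested.

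Of the 30 genes, 12 have a neighbour on the opposite strand whose annotated start lies within 1000 bases of their own, pairs that were looked up after the values were seen. In 2 of the 12 pairs both genes passed the test in the same direction: Atm with Npat, a factor of histone gene transcription (log2 fold change −0.13, edgeR adjusted p = 0.00886), and Chek2 with Hscb, a chaperone of iron-sulphur cluster assembly (0.52, edgeR adjusted p = 0.00554). In 3 of the 12 they passed in opposite directions: Brca1 fell while Nbr1, an autophagy receptor gene that starts 194 bases away, rose from 2929 and 2871 to 5014 and 5054 (log2 fold change 0.80, edgeR adjusted p = 3.5e-12), and Rad51ap1 was likewise set against D6Wsu163e (0.50) and Rad54l against Pomgnt1 (−0.39). For Fancb, the neighbour Mospd2, 217 bases away, had 1505 and 1442 untreated and 1501 and 1495 exposed, so that its groups overlapped (edgeR adjusted p = 0.658). In the remaining 7 pairs, Fancb among them, at most 1 of the genes was called. Over all genes tested 33.5% rose and 38.2% fell, and how often other neighbouring pairs are both called was not counted.

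The other genes of these pathways, listed by function and with the results of these data already known, gave the setting. Of 30 other recombination genes tested, 15 fell, 5 rose and 10 were not called (median log2 fold change −0.16). Over all genes tested 38.2% fell and 33.5% rose, and these shares apply to each list below. Among genes in the count range of the 30 genes, 47.1% fell and 33.1% rose. Rad51b, which acts in a complex with Rad51c, rose by 0.92 on the log2 scale, whereas Rad51c fell. The nuclease and helicase gene Dna2, which extends resection in parallel with EXO1, fell from 1228 and 1114 to 326 and 277 (log2 fold change −1.95, edgeR adjusted p = 1.75e-12). Dna2 was named for the largest fall of this list, so its place below both untreated libraries follows from that choice. Over all genes tested, 44.6% had both exposed libraries below both untreated ones.

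Of 15 other Fanconi genes 9 fell, 4 rose and 2 were not called (median −0.26), beside 38.2% and 33.5% over all genes. Usp1, which removes ubiquitin from FANCD2, fell from 4035 and 3866 to 1782 and 1878 (log2 fold change −1.11, edgeR adjusted p = 5.38e-13). Ube2t, the enzyme that passes ubiquitin to FANCL, rose from 391 and 329 to 529 and 564 (log2 fold change 0.60, edgeR adjusted p = 6.91e-06), and the core subunit gene Fancg rose by 0.68. Ube2t and Usp1 were named as genes of this list with large changes, so groups that do not overlap follow from that choice. Of the 15 genes of the list, 0 had overlapping groups. Over all genes tested, both exposed libraries were above both untreated ones for 40.7% and below for 44.6%.

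Of 6 other mismatch repair genes 5 fell and none rose (median −0.35), the same direction as Msh6. Pms1 and Pms2, whose products act after mismatch recognition, fell by 0.57 and 0.38 on the log2 scale. Of 22 other damage checkpoint genes 18 fell, 2 rose and 2 were not called (median −0.40). For both lists, the shares over all genes were 38.2% for falls and 33.5% for rises. H2afx, which encodes the histone H2A.X that ATM phosphorylates at breaks, fell from 8057 and 8166 to 3093 and 3625 (log2 fold change −1.27, edgeR adjusted p = 1.78e-12). Rif1, which protects ends from resection, fell by 0.95 and Tipin, of the fork protection complex, by 0.92. Mdc1, the mediator that binds phosphorylated H2A.X, rose by 0.38, and Wee1, the kinase that restrains entry into mitosis, by 0.31.

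Of 9 classical end-joining genes 4 rose, 2 fell and 3 were not called (median 0.04), with the shares over all genes at 33.5% for rises and 38.2% for falls. Prkdc, which encodes the catalytic subunit of the DNA-dependent kinase and is related to ATM and ATR, rose from 1185 and 1204 to 1987 and 2098 (log2 fold change 0.77, edgeR adjusted p = 2.32e-10). Its DNA-binding partners Xrcc6 and Xrcc5, the Ku subunits, fell by 0.71 and 0.22 on the log2 scale. Of 5 genes of alternative end joining and PARP enzymes 4 fell and 1 rose (median −0.46): Parp1 and Lig3 fell by 0.73 and 0.74, and Parp3 rose by 0.30, whereas Polq had overlapping groups.

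Cell cycle genes moved beside the repair genes. All 28 S phase genes tested fell (median −0.55, from −1.61 for Ccne1 to −0.10). Of 22 G2/M genes 10 fell, 5 rose and 7 were not called (median −0.06), with Ccna2 at −0.79, Plk1 at −0.56, Cenpf at 0.22 and Nusap1 at 0.53. The part of a shift between cell cycle phases in the changes of the 30 genes was not tested.

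**Figure D5:**
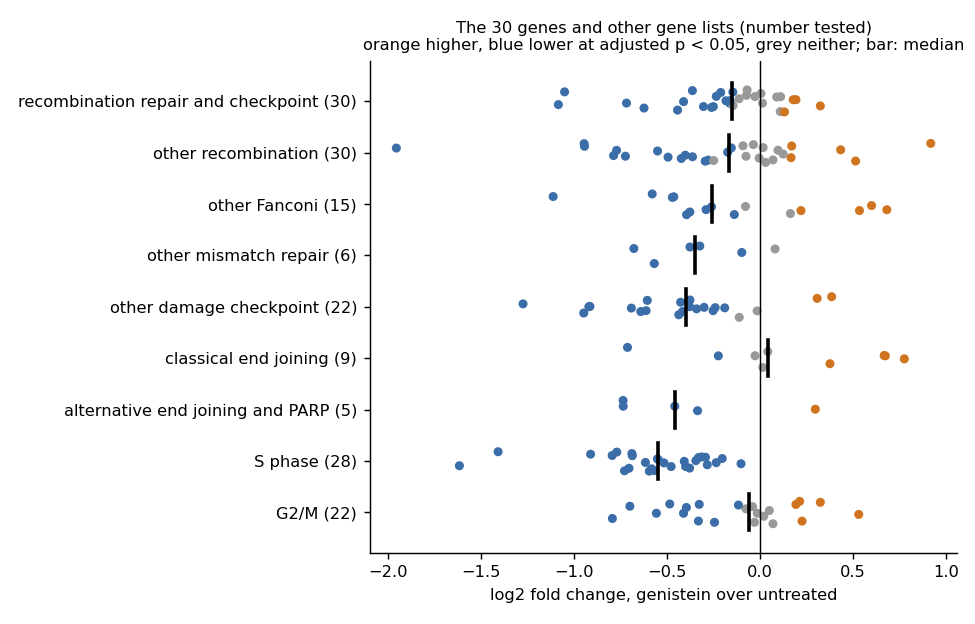
Log2 fold change of genistein over untreated for each tested gene of the 30 genes and of 8 other lists, with rises at edgeR adjusted p under 0.05 in orange, falls in blue, the rest in grey, and a bar at each list's median. The medians run from −0.55 (S phase) to 0.04 (classical end joining), with −0.15 for the 30 genes.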

How the data were processed

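Total RNA libraries of MEF cells, depleted of ribosomal RNA, were sequenced in pairs. Per the methods of the study, the authors trimmed the reads, aligned them to mm10 (GRCm38) with STAR, keeping reads that map to several places, and counted genes (GENCODE M9) and repeat subfamilies with TEtranscripts; the deposited values are raw counts, 1 column a library. Their strand setting was not given in the sources used here. The row without a name (0.00208 to 0.00314% of counts) was left out. Groups came from the labels.

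Entries were kept with filterByExpr (minimum count 10), scaled with TMM over genes and repeats, and compared with edgeR 4.0.16 (quasi-likelihood test, Benjamini-Hochberg adjustment over all entries) in R 4.3.3. SE is the log2 fold change over the root of F. DESeq2 1.42.0, RLE and other scalings, no filter, the replicate number as a block and leaving out each library were alternatives. The scripts were tested on simulated data. Coordinates, exon lengths and overlaps came from GENCODE M21 on the same assembly, so exon lengths may differ from those counted.

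The 30 genes were listed by symbol with no threshold on a value, but they and the other lists were chosen with earlier results of these data known. Beside the 30, the up to 3 genes that rose and 3 that fell most in each list (mean normalised count over 100) and genes overlapping a member were named; Mre11a, the partner pairs and the neighbours were chosen after their values were seen. Results for some genes of these lists are not reported here.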

Additional observations from a re-analysis of the deposited data

How the results depend on the processing

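Of the 20 genes called among the 30, 12 kept their direction and call under all 10 alternatives (Nbn, Rbbp8, Exo1, Xrcc2, Rad51ap1, Fanca, Fancb, Msh6, Atm, Atr and Chek1 lower, Chek2 higher), and Brca1, Bard1, Palb2, Rad51c, Rad54l, Blm, Mus81 and Fancd2 lost the call in at least 1 without a change of sign. The number of the 30 that rose (4) was 7 with TMM factors from genes alone, 7 with library totals and 1 with DESeq2, and ran from 2 to 4 with 1 library left out (2 without untreated 1 and 2 without genistein 1); the number that fell (16) ran from 12 to 16. The 2 falls past all thresholds were 1 with library totals, 1 without genistein 1 (1 to 2 over the libraries left out) and 0 when the fold threshold itself was tested. The median log2 fold change of the 30 genes (−0.15) was −0.11 with genes alone, −0.084 with library totals and −0.18 with no filter, and ran from −0.20 to −0.12 with 1 library left out. DESeq2 called 3 other recombination genes higher in place of 5. A lone library was assumed to vary like the other group.

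The sign turned for genes not called. Brca2 was at −0.0044 with RLE size factors, −0.021 with no filter and −0.0044 with DESeq2, and from −0.057 to 0.057 with 1 library left out. Fancl was at 0.016 with genes alone and 0.042 with library totals, and from −0.11 to 0.064 with 1 library left out; Polq was at −0.013 with no filter, and from −0.0093 to 0.040. Xrcc3 ran from −0.24 to 0.0012 and Fancm from −0.16 to 0.017 with 1 library left out. The cause was not tested. With the replicate number as a replicate block, 4 of the 30 rose and 15 fell, Palb2 losing its call (edgeR adjusted p = 0.0505), with 2 falls past all thresholds and a median of −0.15; same-numbered libraries deviated with a correlation of −0.03, which gives no sign of pairing by number, and the block changed no other call of the 30. The median of all genes moved by 0.04 with genes alone and by 0.07 with library totals. Rad51c and Xrcc3, with normalised counts of 132 to 220.2, had the widest intervals of the 30 genes.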
